A study of Homo sapiens with 2 samples.

Results

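The HOXA cluster genes HOXA2, HOXA3, HOXA4, HOXA5, HOXA7, HOXA9, HOXA10, HOXA11 and HOXA13, together with AC004080.3, a gene model that overlaps HOXA9 and HOXA10, were examined by RNA-seq in ACHN cells, a human renal cell carcinoma line. These 10 genes were taken by name, and all 10 were among the 12014 rows that the files list. They were selected on the difference between the same 2 libraries that are described here, so their changes are a description and support no claim of their own. HOXA6 is also listed in the files but was not in the selection, and its values are given beside those of the members. One library came from cells infected with a lentiviral shRNA against KIAA1429 (official symbol VIRMA, a scaffold of the m6A methyltransferase complex) and is called shKIAA1429, and the other came from cells with a control shRNA and is called shNC. Both were stable ACHN cultures selected with puromycin. The sample label calls the first library a knockout, whereas the methods describe a knockdown, and which of the shRNAs was sequenced is not given in the sources used here. Levels are given in FPKM, the sequenced fragments of a gene scaled by its transcript length and by the size of the library. The targeted gene itself, VIRMA, was at 3.92 FPKM with shNC and 3.22 with shKIAA1429, 82.1% of the control. Its log2 change was -0.22, a small difference for the label, and -0.10 with both libraries rescaled to the same sum. By RT-qPCR and western blot, the study reported lower KIAA1429 mRNA and protein in ACHN cells with the shRNAs.

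HOX genes encode homeodomain transcription factors that specify position along the body axis, and they lie in the clusters HOXA, HOXB, HOXC and HOXD. Within a cluster, the genes at the 3′ end are active earlier and more anteriorly than those at the 5′ end, and genes in the same place of different clusters form a paralog group. HOX proteins bind DNA with TALE homeodomain partners, their loci are held active by MLL complexes and silent by Polycomb complexes, and in the kidney the HOX11 paralogs are needed for the ureteric bud to form and branch.

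The member with the largest difference, AC004080.3, is almost without sequence of its own. In GENCODE 29 it has 1 transcript of 765 bases in 3 exons, annotated as protein coding, and all 765 bases lie in annotated exons of HOXA10 (368 bases) or HOXA9 (397 bases) on the same strand. Its first exon, at chr7:27179646-27180013 on GRCh38 (minus strand), is part of the first exon of a HOXA10 transcript that begins at an upstream start, and its exons 2 and 3 are parts of the 2 exons of HOXA9. What sets it apart is the splice between them, which skips the HOXA10 homeodomain exon and joins the upstream HOXA10 exon to the HOXA9 exon over an intron of 14678 bases. The 30 bases around the splices are printed 5′ to 3′ to show this, with the 15 bases of the downstream exon in capitals.
AC004080.3, exon 1 to exon 2: cggaaatgtgtcaagTTGATAGAGAAAAAC
HOXA10 from the upstream start, exon 1 to exon 2: cggaaatgtgtcaagGCAATTCCAAAGGTG
HOXA10 from the downstream start, exon 1 to exon 2: agaaggattccctggGCAATTCCAAAGGTG
HOXA9, exon 1 to exon 2: cccccatcgatcccaATAACCCAGCAGCCA

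The first junction joins GRCh38 position 27179646 to 27164967 of chromosome 7 and was found in 1 of 206694 GENCODE 29 transcripts, that of AC004080.3 itself. Its upstream 15 bases are those of HOXA10 from the upstream start, whose own junction was also found in 1 transcript. The HOXA9 junction was found in 5 transcripts of 2 genes, HOXA9 and AC004080.3, since the second splice of AC004080.3 is the HOXA9 splice. All of these junctions lie within annotated coding sequence. A read from AC004080.3 that does not cross the first junction can therefore also be assigned to HOXA9 or HOXA10, so the way in which the deposited FPKM split such reads bears on all 3 genes.

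**Figure D1:**
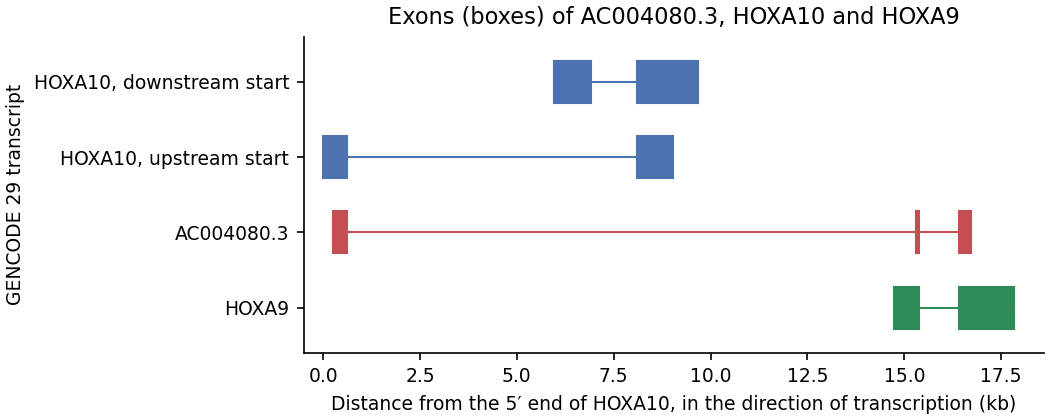
Exons (boxes) and introns (lines) of 4 GENCODE 29 transcripts, plotted by distance in kb from the 5′ end of HOXA10 in the direction of transcription. Every exon of AC004080.3 lies over an exon of HOXA9 or of HOXA10 from its upstream start.

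In the shNC library, HOXA9, a factor of blood stem cells and of MLL-rearranged leukaemia, had the highest level of the members, at 71.4 FPKM. HOXA7 followed at 36.7, AC004080.3 at 24.6, HOXA10 at 18.5, HOXA5 at 15.9 and HOXA4 at 10.2 FPKM. HOXA3, HOXA11, HOXA2 and HOXA13 stood lower, at 8.99, 5.47, 2.34 and 1.79 FPKM. The members from HOXA4 to HOXA10 thus had the higher levels in the control cells and the outer members the lower ones, but HOXA6, inside that stretch and not a member, was at 4.68 FPKM, below HOXA3 and HOXA11. With 1 library per group there is no spread to set neighbours in this order against.

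In the shKIAA1429 library, HOXA9 at 47.1 FPKM and HOXA7 at 24.2 FPKM kept the first and second places, and they were the only members at 10 FPKM or more, against 6 members in the shNC library. HOXA10 stood at 9.52, HOXA4 at 9.20, HOXA5 at 8.55 and HOXA3 at 5.39 FPKM. AC004080.3 moved from the 3rd to the 8th place, at 2.79 FPKM. The lowest levels were those of HOXA11 (4.13 FPKM), HOXA13 (1.95 FPKM) and HOXA2 (1.49 FPKM), with AC004080.3 between the first and second of them.

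**Figure D2:**
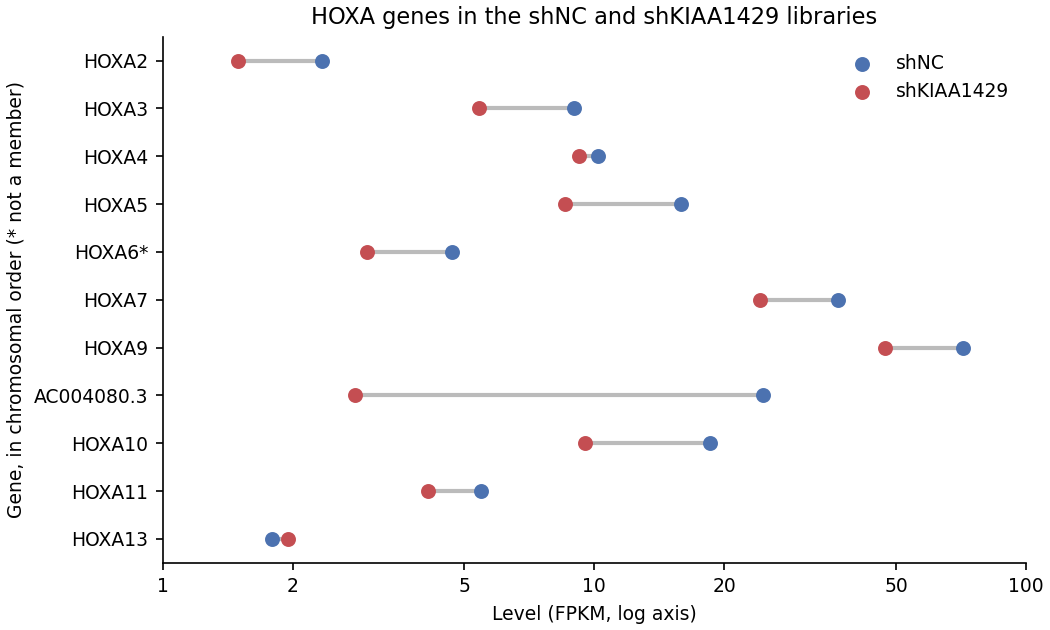
Level of each HOXA gene in FPKM (log axis) in the shNC library (blue) and the shKIAA1429 library (red), 1 library each, with genes in chromosomal order from HOXA2 and the non-member HOXA6 starred. The red point lies left of the blue one for 9 of 10 members, HOXA13 being the exception.

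Differences between the libraries are given as log2((shKIAA1429 + 1)/(shNC + 1)) of the FPKM, which understates the difference of genes at low levels. No p-value can be given with 1 library per group, and since FPKM keep no read count, the depth and the counting error are both unknown. In these bulk samples, fewer cells that express a gene and less of its RNA per cell cannot be told apart. Of the 10 members, all with a mean of at least 1 FPKM, 9 were lower and 1 was higher in the shKIAA1429 library, and their median log2 change was -0.59. Over all 10702 genes that reached a mean of 1 FPKM, 42.7% were lower, and the median was 0.06. Each library was also rescaled to the same sum of 1000000, which raised the median of all genes by 0.18. After this, 8 members were lower and their median was -0.42, against 0.24 for all genes. The pseudocount of 1 was kept and weighed less on these larger values, so values after rescaling differ in both respects, most of all for genes at low levels.

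Past the limit of 1.5 on the log2 scale that the study used, 1 member was lower, against 0.252% of all genes, and 0 members were higher, against 0.383% of all genes. That member was AC004080.3, with a log2 change of -2.76. Only 2 of the 10702 genes had a lower log2 change, and the level in the shKIAA1429 library was 11.3% of that in the shNC library. The next member, HOXA10, lay well inside the limit at -0.89. With a limit of 0.5, chosen after the values were seen, 6 members were lower, against 6.12% of all genes, and 0 were higher, against 9.9%. The plot of all genes shows where the members lie.

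**Figure D3:**
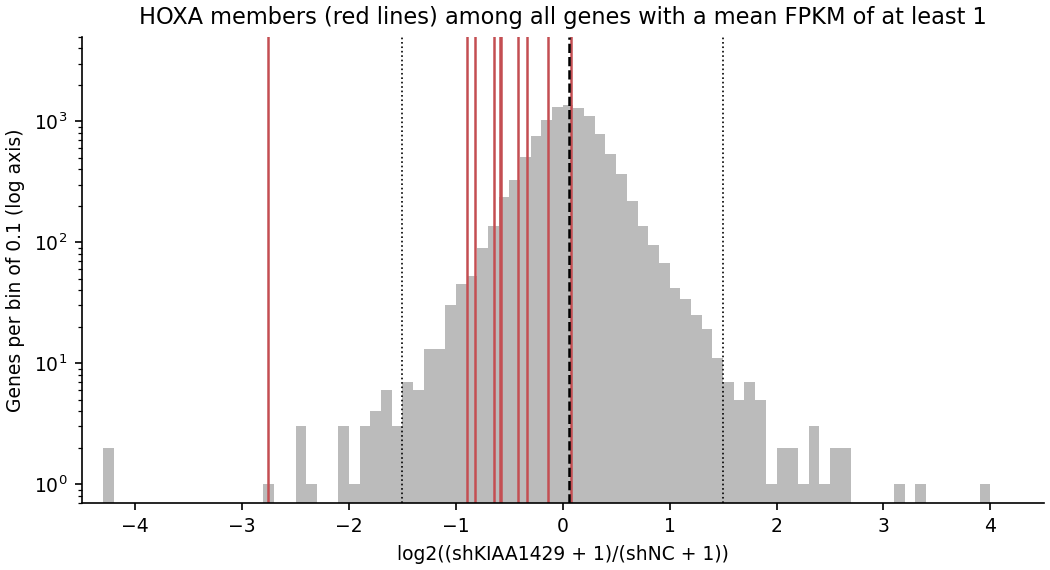
Number of genes (log axis) in bins of 0.1 of the log2 change, for the 10702 genes with a mean of at least 1 FPKM. Red lines mark the 10 members, the dashed line the median of all genes at 0.06, and the dotted lines the limit of 1.5 in each direction; AC004080.3 stands alone at -2.76 and the other members lie between -0.89 and 0.08.

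Among the anterior members, HOXA2, which patterns the second branchial arch and the hindbrain, was at 2.34 FPKM with shNC and 1.49 with shKIAA1429 (log2 change -0.42). HOXA3, needed for the thymus and parathyroid, was at 8.99 and 5.39 FPKM (-0.64).

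Among the central members, HOXA5, which acts in lung development, was at 15.9 FPKM with shNC and 8.55 with shKIAA1429, 53.7% of the control level (log2 change -0.83). HOXA7 was at 36.7 and 24.2 FPKM, 65.9% of the control level (-0.58). HOXA4 was at 10.2 and 9.20 FPKM (-0.13), the smallest difference among the lower members, and became 0.03 when the libraries were rescaled. HOXA6, between HOXA5 and HOXA7 and not a member, was at 4.68 and 2.97 FPKM, 63.6% of the control level (-0.51). Its log2 change was smaller than that of either neighbour, but its percentage of the control lay below the 65.9% of HOXA7.

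Among the posterior members, HOXA10, a regulator of the uterine lining, was at 18.5 FPKM with shNC and 9.52 with shKIAA1429, 51.4% of the control level (log2 change -0.89). HOXA9 was at 71.4 and 47.1 FPKM, 66.0% of the control level (-0.59). HOXA11, one of the HOX11 paralogs of the kidney, was at 5.47 and 4.13 FPKM (-0.34). HOXA13, which acts in the digits and the hindgut, was at 1.79 and 1.95 FPKM (0.08), close to the median of all genes. The differences thus became smaller from HOXA10 to the 5′ end of the cluster, over genes of decreasing level.

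**Figure D4:**
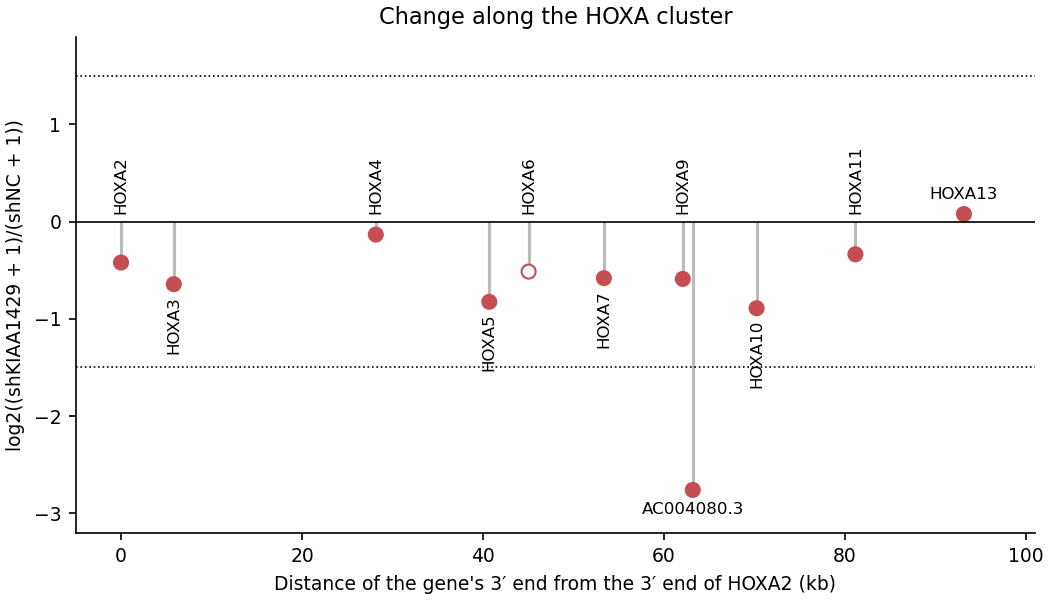
The log2 change of each HOXA gene against the distance of its 3′ end from the 3′ end of HOXA2 in kb, from the positions in the files; filled points are members, the open point is HOXA6, and dotted lines mark the limit of 1.5. The genes from HOXA2 to HOXA11 are below 0, and HOXA13 is at 0.08.

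The 10 members summed to 196 FPKM with shNC and 114 FPKM with shKIAA1429, 58.3% of the control (log2 change -0.77). HOXA9 made up 36.4% of the sum with shNC and 41.2% with shKIAA1429, and HOXA7 18.7% and 21.2%. AC004080.3 made up 12.6% of the sum with shNC and 2.44% with shKIAA1429. Without it, the sum of the other 9 members was 171 and 112 FPKM, 65.1% of the control (-0.61). The lower sum was thus not that of AC004080.3 alone, since the remaining members together were lower too.

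AC004080.3, HOXA9 and HOXA10, which share exons, summed to 115 FPKM with shNC and 59.4 FPKM with shKIAA1429 (log2 change -0.94). HOXA9 and HOXA10 without AC004080.3 summed to 89.9 and 56.6 FPKM (-0.66). AC004080.3 differed by -21.8 FPKM, HOXA9 by -24.3 FPKM and HOXA10 by -8.99 FPKM. The part of the split of shared reads in these differences was not tested. Since FPKM of a short model count fewer fragments, each level was also multiplied by the length of 1 transcript, 0.765 kb for AC004080.3, 2.06 kb for HOXA9 and 2.541 kb for HOXA10 from its downstream start, a weighting chosen after the values were seen. In these length-weighted units AC004080.3 stood at 18.8 with shNC and 2.13 with shKIAA1429. HOXA9 stood at 147 and 97.1, and HOXA10 at 47.0 and 24.2. On this scale the 3 genes together stood at 213 and 123 (log2 change -0.78).

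The cluster also holds antisense genes. In GENCODE 29, 7 of the 10 members share exon bases with a gene on the opposite strand. The largest shares were 62.5% of the exon bases of HOXA7, under HOXA-AS3, and 31.1% of those of HOXA11, under HOXA11-AS. HOXA9 and HOXA10 share 13.9% and 16.4% of theirs with HOXA10-AS. The libraries were made by a strand-specific protocol, but whether the counting used the strand is not given in the sources used here, so reads of these antisense RNAs may be part of the values. The files list protein-coding genes only, and the antisense genes were not analysed here.

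Promoter windows of RefSeq (GRCh38.p14), from 250 bases before to 50 bases after a start site, were found by symbol for 8 of the 10 members, in 15 windows. Their median GC content was 55.0%, against 58.7% over all 35116 windows, and their median ratio of observed to expected CpG was 0.78, against 0.58. More of these windows belong to HOXA3 than to any other member, with CpG ratios from 0 to 1.05, so HOXA3 weighs most in these medians. The windows of HOXA9 and of the downstream start of HOXA10 are shown, the latter start being that of the HOXA10 transcript that shares no exon with AC004080.3. The window at the upstream start of HOXA10, which holds the start of AC004080.3, lies within an annotated exon and is not printed. Capitals mark matches on either strand to TTTAT, a core of posterior HOX binding sites, or to CACGTG, the E-box of bHLH factors such as MYC.
HOXA9, chr7:27165488-27165787, minus strand: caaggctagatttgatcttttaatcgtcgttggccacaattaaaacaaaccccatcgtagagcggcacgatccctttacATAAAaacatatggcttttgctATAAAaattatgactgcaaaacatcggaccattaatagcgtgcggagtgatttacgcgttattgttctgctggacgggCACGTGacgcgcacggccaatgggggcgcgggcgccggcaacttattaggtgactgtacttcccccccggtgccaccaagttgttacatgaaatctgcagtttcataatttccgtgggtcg
HOXA10, chr7:27174271-27174570, minus strand: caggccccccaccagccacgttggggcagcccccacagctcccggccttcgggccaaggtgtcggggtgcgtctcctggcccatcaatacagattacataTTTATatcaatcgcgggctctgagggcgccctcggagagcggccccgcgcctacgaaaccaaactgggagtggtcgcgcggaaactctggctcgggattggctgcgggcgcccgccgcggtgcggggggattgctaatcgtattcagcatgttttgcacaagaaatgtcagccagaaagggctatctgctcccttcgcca

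TTTAT was found in 10 of the 15 member windows, of HOXA2, HOXA3, HOXA4, HOXA9 and HOXA10, and in 34.9% of all windows. CACGTG, a palindrome, was found in 4 member windows, of HOXA3, HOXA4, HOXA7 and HOXA9, and in 7.26% of all windows. TGACAG, the core of MEIS sites, was found in 3 member windows, of HOXA2, HOXA4 and HOXA13, and in 15.8% of all windows. TGATTNAT, a composite site of HOX and PBX proteins, was found in 1 member window, that of HOXA2, and in 2.82% of all windows. TAATTA was found in 0 member windows and in 4.84% of all windows. Where its N is T, TGATTNAT contains TTTAT, so the counts of this pair can overlap, and no other of these motifs contains another. Both strands were searched for each, and HOXA3 holds more of the 15 windows than any other member. These matches are a description of the letters and not of binding.

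In the other HOX clusters, 24 genes were listed and 22 had a mean of at least 1 FPKM. Of these, 17 were lower and 5 higher, with a median log2 change of -0.21, and after rescaling 13 were lower with a median of -0.04. Among all genes 42.7% were lower with a median of 0.06, and 25.4% with a median of 0.24 after rescaling. Past 1.5 there were 0 genes in either direction. With the limit of 0.5, 6 were lower and 2 were higher, against 6 and 0 of the 10 HOXA members and 6.12% and 9.9% of all genes. After rescaling, the balance turned, with 2 lower and 4 higher, against 4 and 0 of the HOXA members and 491 and 2558 of all 10702 genes. Summed over the genes of a cluster, HOXB went from 118 to 113 FPKM (95.5% of the control), HOXC from 74.2 to 62.5 FPKM (84.3%) and HOXD from 38.4 to 27.8 FPKM (72.4%). These sums were not rescaled. All rows summed to 283046 FPKM with shNC and 249409 with shKIAA1429, so the direction for HOXB depends on the scaling. The 9 HOXA members without AC004080.3 were at 65.1%, but they were selected on this difference and are not the whole cluster, so the clusters are not ranked. No test of the difference between clusters can be made with 1 library per group.

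Paralog groups showed the same sign across clusters in some cases and opposite signs in others. HOXB2, a hindbrain gene, was at 5.55 FPKM with shNC and 14.2 with shKIAA1429 (log2 change 1.22), the highest of the HOXB, HOXC and HOXD genes, whereas its paralog HOXA2 was at -0.42. HOXB3 (0.34) and HOXB4 (0.37) were higher, whereas HOXA3 was at -0.64 and HOXA4 at -0.13. In paralog group 5, HOXA5 (-0.83), HOXB5 (-0.52) and HOXC5 (-0.87) were all lower, and HOXC5 went from 5.09 to 2.34 FPKM. In group 8, HOXB8 (-0.56), HOXC8 (-0.53) and HOXD8 (-0.04) have no HOXA counterpart, and HOXD8 became 0.14 after rescaling.

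The listed paralogs of HOXA7, HOXA9 and HOXA10 were lower too, and of these paralogs HOXC9 alone changed sign after rescaling. HOXB7 was at 34.9 and 29.8 FPKM (log2 change -0.22) beside HOXA7 at 36.7 and 24.2 FPKM. HOXB9 was at 32.3 and 28.4 FPKM (-0.18), HOXC9 at 9.46 and 8.86 FPKM (-0.09, and 0.08 after rescaling) and HOXD9 at 11.4 and 7.39 FPKM (-0.57), beside HOXA9 at -0.59. HOXC10 was at 20.4 and 17.6 FPKM (-0.20) and HOXD10 at 4.24 and 3.48 FPKM (-0.22), beside HOXA10 at 18.5 and 9.52 FPKM (-0.89). After rescaling, HOXB7 was at -0.04, HOXB9 at -0.003, HOXC10 at -0.03, HOXD10 at -0.09 and HOXD9 at -0.44. On that scale HOXA7, HOXA9 and HOXA10 were at -0.41, -0.42 and -0.76, and the median of all genes was 0.24. The HOXA members were selected on this difference, so they are not ranked against their paralogs.

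At the 5′ end, HOXD11, with HOXA11 one of the HOX11 paralogs, was at 6.63 FPKM with shNC and 3.27 with shKIAA1429 (log2 change -0.84), and HOXC11 was at 1.62 and 1.76 FPKM (0.08). HOXC13, which acts in hair and nail, was at 1.42 and 3.31 FPKM (0.83), and HOXB13, a prostate and hindgut gene, at 5.35 and 3.56 FPKM (-0.48), beside HOXA13 at 0.08. Of the remaining listed genes, HOXC4 (-0.03), HOXB6 (-0.08), HOXC6 (-0.23) and HOXD4 (-0.34) lay between 0 and -0.5, and HOXC4 and HOXB6 became 0.14 and 0.09 after rescaling. HOXD3 (0.511 and 0.0332 FPKM) and HOXD13 (0.729 and 0.671 FPKM) had means under 1 FPKM and were not counted.

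**Figure D5:**
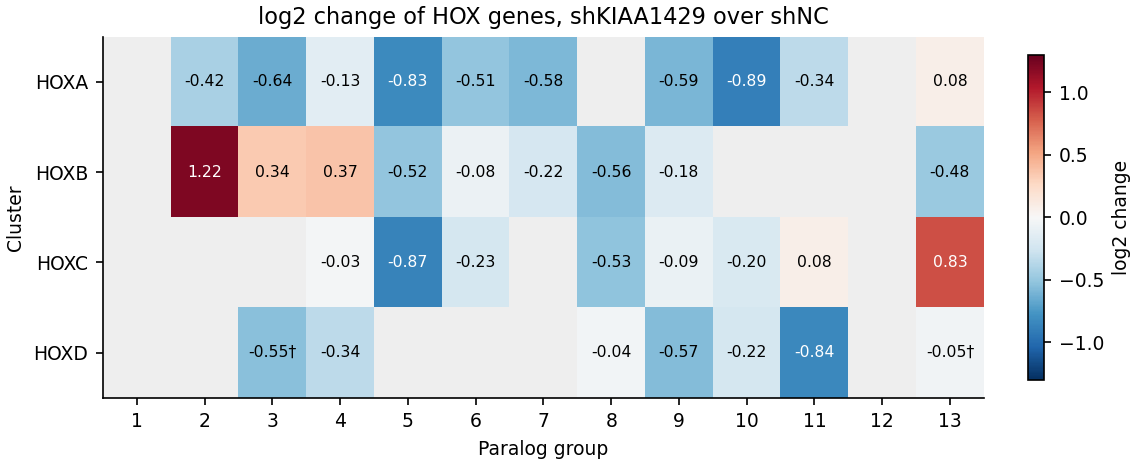
The log2 change of HOX genes by cluster (rows) and paralog group (columns), blue for lower and red for higher in the shKIAA1429 library, grey where no value is given; the dagger marks HOXD3 and HOXD13, with means under 1 FPKM. HOXB2 (1.22) and HOXC13 (0.83) are the highest values shown, and HOXA10 (-0.89), HOXC5 (-0.87), HOXD11 (-0.84) and HOXA5 (-0.83) the lowest.

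The TALE partners of HOX proteins (PBX, MEIS, PKNOX and TGIF genes and PBXIP1, which binds PBX proteins) lay on both sides of 0. Of 13 symbols, 1 of which (PREP1) is an older name of PKNOX1, 9 were listed and 7 kept. Their median log2 change was -0.01, or 0.17 after rescaling. In either direction 0 lay past 0.5, against 2 higher after rescaling, where 2558 of all 10702 genes were above 0.5. The 3 with the largest differences were PKNOX1 at 1.38 and 2.11 FPKM (0.39), PBX3 at 6.30 and 8.26 FPKM (0.34) and MEIS3 at 2.28 and 1.63 FPKM (-0.32).

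The Trithorax and MLL list of 22 genes is wider than the complexes themselves. Of these 22 genes, 21 were kept, 15 were higher and 6 (28.6%) lower, with a median of 0.07, close to that of all genes. The lower genes numbered 10 (47.6%) after centring on the median of all genes and 0 after rescaling. The shares of all genes that were lower were 42.7% as reported, 50% after centring and 25.4% after rescaling. AFF4, a scaffold of the super elongation complex, was at 8.88 FPKM with shNC and 16.8 with shKIAA1429 (log2 change 0.85). It was the only one past 0.5, against 5 after rescaling, where 2558 of all 10702 genes were above 0.5. The H3K27 demethylase genes KDM6A, at 1.62 and 2.51 FPKM (0.42), and KDM6B, at 5.12 and 7.02 FPKM (0.39), came next.

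Of the 35 Polycomb genes, 34 were kept, 23 were higher and 11 lower, with a median of 0.11. The lower genes numbered 14 (41.2%) after centring and 5 (14.7%) after rescaling, against 50% and 25.4% of all genes. Those higher by more than 0.5 numbered 3, and 8 after rescaling, against 1060 and 2558 of all 10702 genes. CBX8, a chromodomain subunit of Polycomb repressive complex 1, was at 3.90 FPKM with shNC and 1.80 with shKIAA1429 (log2 change -0.81), the only one lower by more than 0.5. PHF1, a Polycomb-like protein, was at 6.60 and 11.4 FPKM (0.71), and RYBP, a subunit of variant Polycomb complexes, at 8.46 and 14.0 FPKM (0.67).

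All 12 genes of the CTCF and cohesin list, whose proteins shape the chromatin loops of HOX clusters, were higher, with a median log2 change of 0.41, and 4 of them lay above 0.5, which became 10 with a median of 0.63 after rescaling. SMC3, a cohesin core subunit, was at 24.9 FPKM with shNC and 39.7 with shKIAA1429 (0.65), MAZ at 20.4 and 32.0 FPKM (0.62), and the cohesin subunit STAG2 at 5.92 and 9.26 FPKM (0.57). Each remained below the limit of 1.5, and 9.9% of all genes were above 0.5, or 2558 of 10702 after rescaling. The share of all genes that were lower was 42.7%, and 25.4% after rescaling, with medians of 0.06 and 0.24.

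Retinoic acid, made by retinol and retinal dehydrogenases and cleared by CYP26 enzymes, activates 3′ HOX genes. Of 22 genes of this pathway, 13 were listed and kept, 9 were higher and 4 lower, with a median of 0.14 and 0 past 0.5. After rescaling 1 was lower and 2 were above 0.5. Over all genes 42.7% were lower, and 25.4% after rescaling, where 2558 of 10702 were above 0.5. RDH11 was at 9.94 and 13.2 FPKM (log2 change 0.38), CYP26B1 at 2.69 and 3.77 FPKM (0.37) and DHRS3 at 14.4 and 17.1 FPKM (0.24).

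Of 25 genes that act with the HOX11 paralogs in kidney development, 10 were listed and 9 kept, 5 lower and 4 higher, with a median of -0.05, and 0.08 after rescaling. The lower ones were 55.6% of those kept, and 44.4% after rescaling, against 42.7% and 25.4% of all genes. LHX1, a transcription factor of the early nephric lineage, was at 11.0 FPKM with shNC and 4.44 with shKIAA1429 (log2 change -1.14). PAX8, another factor of that lineage, was at 64.7 and 104 FPKM (0.68), and SIX5 at 7.32 and 4.52 FPKM (-0.59).

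On chromosome 7 (GRCh37, from the files) the members span positions 27139973 to 27239725. The nearest listed genes outside the HOXA cluster were SKAP2, an adaptor protein gene 105 kb beyond the HOXA2 side of the members, at 19.3 FPKM with shNC and 19.0 with shKIAA1429 (log2 change -0.02, and 0.16 after rescaling), and HIBADH, a gene of valine breakdown 325 kb beyond HOXA13, at 64.9 and 40.9 FPKM (-0.65). Within 2 Mb, 12 non-HOX genes were listed and 11 kept, 7 higher and 4 lower, with a median of 0.31, and 2 were lower after rescaling. Over all genes 42.7% were lower, and 25.4% after rescaling. SNX10, 726 kb away, was at 9.58 and 4.21 FPKM (-1.02), and CREB5, at 1099 kb, was at 8.10 and 13.2 FPKM (0.64). The lower values of the members were thus met again in HIBADH and SNX10 but not in most genes of the region.

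The FPKM of all rows summed to 283046 with shNC and 249409 with shKIAA1429, and scaling for this difference moves the log2 changes above. Of 14 markers of renal epithelium and renal carcinoma, 11 were listed, and they summed to 1074 and 911 FPKM, while EMX2, CDH6 and CA12 were not listed. Within this sum VIM was at 368 and 228 FPKM and KRT19 at 292 and 212 FPKM, whereas PAX8 (log2 change 0.68), PAX2 (0.32) and KRT18 (0.22) were higher. Of 4 leukocyte markers 2 were listed (CD68 and LYZ, summed to 7.80 and 2.21 FPKM) and PTPRC and CD3E were not. LYZ alone was at 3.93 and 0.154 FPKM (-2.09), past the limit of 1.5. Of 4 endothelial markers 0 were listed, and of 6 fibroblast markers 2 were (COL1A1 and PDGFRB, summed to 1.75 and 2.60 FPKM). The part of these differences in the HOXA values was not tested.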

How the data were processed

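The authors deposited 1 table of FPKM per library, with gene positions on GRCh37. Poly(A) RNA was sequenced with a strand-specific protocol, and the submitters' processing notes name cutadapt 1.9, HISAT2 2.0.4 and StringTie 1.3.4d, as well as DESeq2 and edgeR, with which nothing was computed here. The files hold 12014 protein-coding rows, each above 0.5 FPKM in at least 1 of the 2 libraries, so an unlisted gene may be low in both. Groups were taken from the sample labels. With 1 library per group no test was run, and depth is unknown.

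The log2 change was computed with a pseudocount of 1 for genes with a mean of at least 1 FPKM. Each of 7 repeated symbols was represented by its row of highest mean, which leaves 10702 genes. The limit of 1.5 is that of the study's methods. Members and gene lists were chosen with earlier results of these data known, and some genes of the HOX and marker lists are not reported here. Named genes were all members, the listed HOX genes, KIAA1429 (VIRMA), the neighbours within 500 kb, the 3 genes with the largest absolute log2 change of each list and any past 1.5, and the 3 genes nearest in level to AC004080.3 and to HOXA10.

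Alternatives were centring on the median of all genes, a pseudocount of 0.1, rescaling to a sum of 1000000, a limit of 1, no filter, a mean of at least 5 FPKM, summing the rows of a symbol and leaving out AC004080.3. A count was called moved when it differed by over 1.5 times, and a log2 value when it crossed 1.5 or differed by more than a 1.5-fold change. Exons and junctions came from GENCODE 29 (GRCh38) and promoters from RefSeq (GRCh38.p14), matched by symbol, with no conversion between builds. The steps were checked on data with known changes, using Python 3.11.15, NumPy 2.4.6, pandas 2.3.3 and matplotlib 3.10.9.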

Additional observations from a re-analysis of the deposited data

How the results depend on the processing

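The median of the HOXA members, their sum and the sum of AC004080.3, HOXA9 and HOXA10 stayed below 0 and within a 1.5-fold change of the reported value under every alternative run, and AC004080.3 stayed past the limit, between -3.10 and -2.82. Among the members, the sign changed for HOXA4 alone, which was 0.03 after rescaling. The count of members lower past the limit was 0 without AC004080.3 and 6 with the limit of 0.5, an alternative chosen after seeing the data. Over all genes, 41 were higher and 27 lower past 1.5. These counts were 112 and 60 with a pseudocount of 0.1, 172 and 96 with a limit of 1, and 1060 and 655 with a limit of 0.5, and the count of higher genes was 133 after rescaling and 24 with a mean of at least 5 FPKM. In the gene lists other than the cell type markers, 0 genes passed 1.5. With a limit of 1, 1 gene of the other HOX list (HOXB2), 1 of the kidney list (LHX1) and 1 neighbour (SNX10) passed. With a limit of 0.5, the counts in both directions were 9 for the other HOX list, which holds HOXA6 beside the HOXB, HOXC and HOXD genes, 1 for Trithorax and MLL, 4 for Polycomb, 4 for CTCF and cohesin, 3 for the kidney list and 3 for the neighbours. No paired analysis was possible because each group holds a single library. FPKM do not give the counting error of the members near 2 FPKM, HOXA2 and HOXA13, for which no error can be stated.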

Other observations

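The genes whose levels lay nearest to those of AC004080.3, by the distance of log2(FPKM + 1) over the 2 libraries, were ABHD14B (19.3 FPKM with shNC and 2.84 with shKIAA1429, distance 0.34), SPIN1 (17.2 and 3.30 FPKM, distance 0.53) and MYC, a bHLH transcription factor (28.5 and 4.53 FPKM, distance 0.58). Those nearest to HOXA10 were PLEKHA2 (18.0 and 9.54 FPKM, distance 0.04), ID2, an inhibitor of bHLH factors (18.0 and 9.75 FPKM, distance 0.05), and SLC35D2 (18.8 and 9.17 FPKM, distance 0.05). AC004080.3 thus had few genes close to it and HOXA10 had closer ones. With 2 values per gene, a short distance says only that the levels were alike in these libraries.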
